A study of Mus musculus with 6 samples.

Results

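The 9 genes Acat2, Hmgcs1, Mvk, Pmvk, Mvd, Idi1, Fdps, Fdft1 and Sqle encode enzymes of the mevalonate pathway between acetyl-CoA and squalene epoxide. They were found by gene name in a table of read counts for 661W cells, 9 of 38776 genes. The 9 were chosen with their difference between serum-starved and serum-fed cells already known from these data, so that difference is given as a description, and no count of calls on it is used as support.

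661W cells are an immortalized mouse line, used as a model of cone photoreceptors, that came from a retinal tumor in a mouse carrying SV40 T antigen. Serum-starved cells were kept for 72 h in high-glucose DMEM without fetal calf serum (FCS). Serum-fed cells were given fresh high-glucose DMEM with 10% FCS for the same 72 h. Each of passages 24, 26 and 27 gave 1 serum-starved and 1 serum-fed culture, so n = 3 per condition, and all 6 libraries come from 1 immortalized line with no other line or primary cone beside them. Libraries held 71970076 to 87178722 counts in genes. As a check of the labelled cell type, 12 of 14 cone markers had a count, the cone arrestin gene Arr3 and Rxrg were at 0 in all 6 libraries, and the 14 summed to 5.09 to 6.73 CPM (a gene's counts divided by the library total, times 1e6) in starved cells and 3.93 to 4.85 CPM in fed cells, so the cone markers that define the type were absent or low.

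The mevalonate pathway builds mevalonate from acetyl-CoA units and makes from it the isoprenoid units that are condensed to squalene, the precursor of all sterols. Side branches of the same pathway supply dolichol, ubiquinone and the lipid anchors of prenylated proteins. In mammalian cells the genes are known targets of SREBP-2, a transcription factor that is held in the endoplasmic reticulum when sterols are plentiful and is released to the nucleus when they are scarce, and serum lipoproteins are a main source of sterol for cells in culture. At its target promoters SREBP-2 is known to bind together with NF-Y and Sp1.

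RefSeq promoters (GRCm38.p6, 250 bases before to 50 bases after the start site) were found for 6 of the 9 genes, Acat2, Hmgcs1, Mvk, Pmvk, Mvd and Idi1. A promoter for Fdps, Fdft1 or Sqle was not used here. Each window was searched on both strands for the SREBP element TCACNCCAC, its looser core CACNCCAC, which lies inside the element, the NF-Y box CCAAT and the Sp1 box GGGCGG. The 4 printed below show the promoter with the full element, the one with only the core, the one with the most NF-Y boxes and, with Idi1, the promoter of the lowest gene. Capitals mark SREBP and NF-Y matches on either strand, so that an NF-Y box on the other strand reads ATTGG, and Sp1 boxes are left in lower case.

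Hmgcs1 promoter, chr13:119690101-119690400, plus strand: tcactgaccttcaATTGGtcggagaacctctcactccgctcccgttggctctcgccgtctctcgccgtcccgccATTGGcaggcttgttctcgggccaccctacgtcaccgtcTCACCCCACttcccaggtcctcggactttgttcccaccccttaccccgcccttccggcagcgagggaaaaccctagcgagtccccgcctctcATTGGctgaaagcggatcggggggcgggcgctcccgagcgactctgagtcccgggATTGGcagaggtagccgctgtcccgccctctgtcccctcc
Acat2 promoter, chr17:12960676-12960975, minus strand: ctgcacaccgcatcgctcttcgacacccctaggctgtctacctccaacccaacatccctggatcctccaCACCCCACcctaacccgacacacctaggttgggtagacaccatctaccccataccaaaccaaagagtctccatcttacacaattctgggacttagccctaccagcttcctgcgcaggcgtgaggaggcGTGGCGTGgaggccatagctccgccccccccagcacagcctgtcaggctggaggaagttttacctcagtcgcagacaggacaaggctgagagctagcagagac
Mvk promoter, chr5:114444019-114444318, plus strand: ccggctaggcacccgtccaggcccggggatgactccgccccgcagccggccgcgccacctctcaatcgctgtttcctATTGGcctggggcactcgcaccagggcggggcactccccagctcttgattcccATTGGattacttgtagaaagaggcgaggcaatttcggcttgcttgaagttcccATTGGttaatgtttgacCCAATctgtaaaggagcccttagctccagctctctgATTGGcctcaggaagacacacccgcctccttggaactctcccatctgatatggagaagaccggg
Idi1 promoter, chr13:8885356-8885655, plus strand: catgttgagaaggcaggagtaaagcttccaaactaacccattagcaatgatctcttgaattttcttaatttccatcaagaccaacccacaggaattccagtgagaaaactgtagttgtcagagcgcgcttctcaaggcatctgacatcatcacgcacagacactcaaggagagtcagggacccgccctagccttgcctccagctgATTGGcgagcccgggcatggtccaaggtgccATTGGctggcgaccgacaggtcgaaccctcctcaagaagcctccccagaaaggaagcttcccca

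The Hmgcs1 promoter was the only one of the 6 with the full element, as TCACCCCAC 137 bases before the start, and it also held 4 NF-Y boxes and 3 Sp1 boxes. Of 32851 mouse promoters of the same length, 1.24% held the element and 1.06% held 4 or more NF-Y boxes. Acat2 had 2 copies of the core, 181 and 53 bases before the start, and no NF-Y box, and 0.475% of all promoters had 2 or more cores. Mvk had 5 NF-Y boxes and no core, against 0.271% of promoters with 5 or more. Idi1 and Mvd each had 2 NF-Y boxes, a number reached by 11.7% of promoters, and Pmvk had 1 at its first start site and none at its second (37.4% of promoters hold at least 1). These matches describe letters in a window of 300 bases and were not tested for binding.

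Levels of all 9 genes were higher in each serum-starved library than in any serum-fed library. Together the 9 took 2456, 2241 and 1873 CPM in starved cells of passages 24, 26 and 27, against 600.2, 571 and 697 CPM in fed cells of the same passages. The mean was 2190 ± 295 CPM in starved cells and 623 ± 66.0 CPM in fed cells (SD, n = 3 each), and the lowest starved sum lay above the highest fed sum. Such a pattern of no overlap with starved above fed was found in 7.92% of the 15660 genes tested, and the reverse, starved below fed, in 0 of the 9 and in 4.92% of the tested genes. Within passages 9 of 9 were higher in starved cells in each of the 3, as were 27.7% of the tested genes. By edgeR's quasi-likelihood test with passage as a block, 9 of 9 passed an adjusted p under 0.05 and 8 of 9 passed 0.01, where 3.54% and 0.773% of all tested genes did so in that direction. Because this contrast chose the genes, nothing is read from those counts. All 9 passed the filter on low counts, with 316 to 57453 counts per library. In bulk RNA a change in the mix of cells and a change in the RNA of each cell cannot be told apart.

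**Figure D1:**
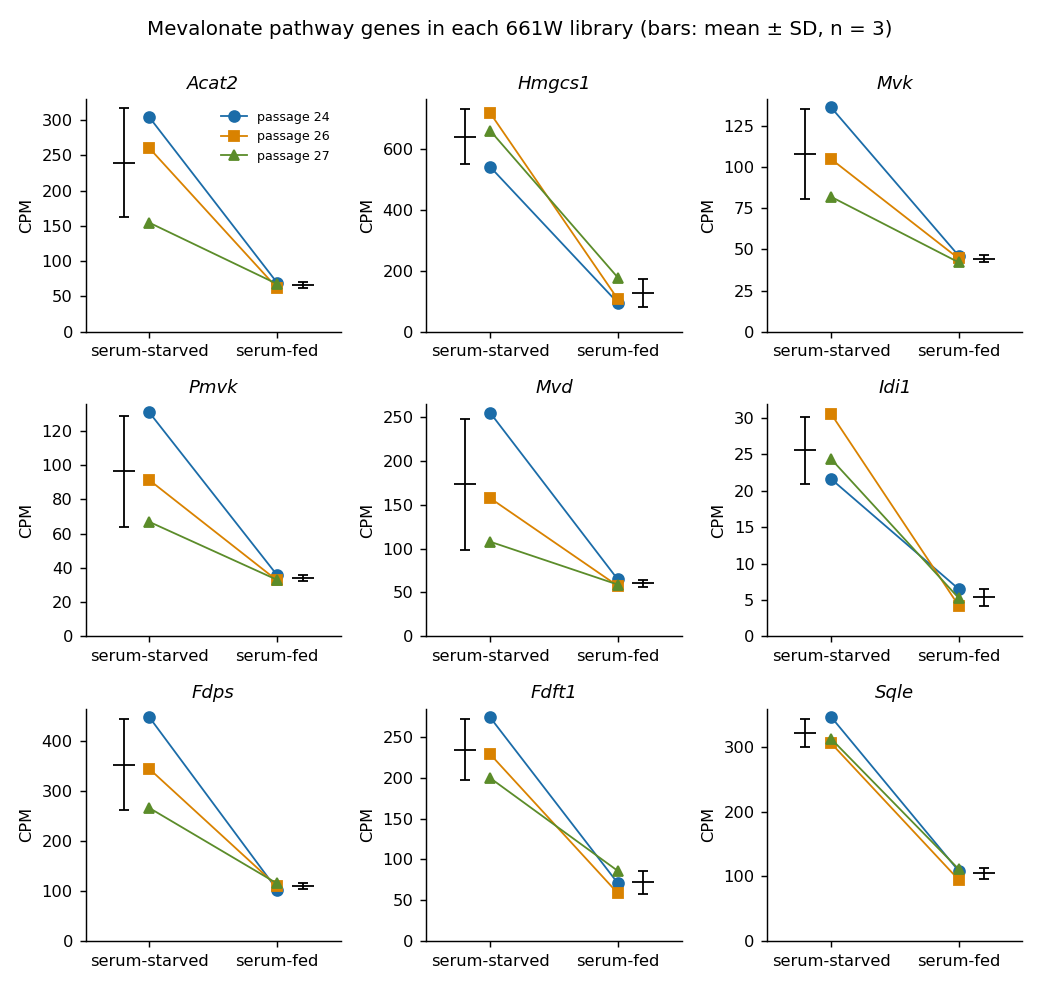
Level in CPM (y axis, from 0, own scale per gene) of the 9 mevalonate pathway genes in serum-starved and serum-fed 661W cells, with a line joining the 2 cultures of a passage and black bars for the mean ± SD (n = 3). In all 9 panels the 3 starved points lie above the 3 fed points, and relative to their level the starved points are spread more widely than the fed ones for Acat2, Mvk, Pmvk, Mvd and Fdps.

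The pathway opens with Acat2, the cytosolic thiolase that joins acetyl-CoA to acetoacetyl-CoA (ENSMUSG00000023832, chr17:12942890-12960747 in GRCm38, minus strand). It had 304, 260 and 154 CPM in starved cells of passages 24, 26 and 27, against 69.7, 62.2 and 67.8 CPM in fed cells. The fed libraries lay within 1.12-fold of each other and the starved ones within 1.97-fold, with passage 27 lowest. The fitted log2 fold change of starved over fed was 1.74 (SE 0.20). Of the 75-base windows along its exons, 33.9% also occur in another gene, mainly its near-copy Acat3, so reads in those windows could not be placed on 1 gene. Acat3 itself had a mean of 0.187 CPM in starved cells and 0.129 CPM in fed cells.

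Hmgcs1, the cytosolic HMG-CoA synthase that adds the next acetyl unit (ENSMUSG00000093930, chr13:119690379-119708260, plus strand), had the highest fold of the 9. Its starved cells had 540, 717 and 659 CPM in passages 24, 26 and 27, and its fed cells had 95.0, 107 and 178 CPM. The mean of the starved cells was 5.04-fold that of the fed cells, with a fitted log2 fold change of 2.33 (SE 0.18). Unlike in the other 8, passage 24 was lowest in both conditions, and the fed level of passage 27 stood apart from the other 2. Of its 75-base windows 0.863% also occur outside its locus.

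Mvk, Pmvk and Mvd encode the kinases and the decarboxylase that turn mevalonate into isopentenyl pyrophosphate, and they had the smallest differences of the 9. Mvk, the first kinase (ENSMUSG00000041939, chr5:114444269-114460591, plus strand), had 136, 105 and 82.0 CPM in starved cells of passages 24, 26 and 27, against 46.3, 44.5 and 42.2 CPM in fed cells. Pmvk, the phosphomevalonate kinase (ENSMUSG00000027952, chr3:89454541-89469013, plus strand), had 131, 91.3 and 66.9 CPM in starved cells and 35.8, 32.7 and 33.0 CPM in fed cells. For both genes the fed libraries lay within 1.10-fold of each other, and the starved ones were ordered 24, 26, 27 with passage 24 at the top.

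Mvd, the decarboxylase (ENSMUSG00000006517, chr8:122433601-122443422, minus strand), had 255, 158 and 108 CPM in starved cells and 64.9, 57.5 and 59.0 CPM in fed cells of those passages. It had the widest spread between starved libraries, 2.36-fold, and the smallest gap between the conditions, with the lowest starved library 1.66-fold above the highest fed library. The fitted log2 fold changes were 1.20 for Mvk (SE 0.14), 1.40 for Pmvk (SE 0.17) and 1.38 for Mvd (SE 0.20). None of the 75-base windows of Mvk, Pmvk or Mvd occurs in another gene.

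Mvk shares its promoter region with Mmab, which encodes an enzyme of cobalamin metabolism and starts 209 bases away on the opposite strand. Mmab was looked at after the values were seen. It had 53.0, 49.4 and 45.7 CPM in starved cells of passages 24, 26 and 27, against 17.2, 29.4 and 36.5 CPM in fed cells, and the groups did not overlap. Its log2 fold change of 0.84 (SE 0.24) did not pass edgeR's quasi-likelihood test (adjusted p = 0.0849).

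Idi1, the isomerase that makes dimethylallyl pyrophosphate (ENSMUSG00000058258, chr13:8885501-8892451, plus strand), was the lowest of the 9 per kilobase of exon in every library. It had 21.6, 30.6 and 24.4 CPM in starved cells of passages 24, 26 and 27, and 6.52, 4.24 and 5.28 CPM in fed cells. Its fold was among the highest, with a log2 fold change of 2.21 (SE 0.24), second to Hmgcs1. Passage 26 had both the highest starved and the lowest fed level, an order seen for none of the other 8. Of its 75-base windows 16.7% also occur outside its own locus, mainly in the Gm13502 gene, and reads there could not be placed on 1 gene. Its homolog Idi2 did not reach the count filter.

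Fdps, the farnesyl pyrophosphate synthase at the branch point to sterols and prenyl groups (ENSMUSG00000059743, chr3:89093588-89101959, minus strand), had 448, 344 and 266 CPM in starved cells of passages 24, 26 and 27, against 103, 110 and 115 CPM in fed cells. The 2 conditions ran in opposite order over the passages, starved cells being highest in passage 24 and fed cells lowest there. The fitted log2 fold change was 1.60 (SE 0.18), the median of the 9. Of its 75-base windows, 9.57% recur outside its locus. Within the locus, 21.9% recur in Gm43738, which overlaps Fdps on the same strand and is not among the genes with counts here.

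Fdft1, the squalene synthase and the first enzyme given over to sterols (ENSMUSG00000021273, chr14:63145150-63179578, minus strand), had 274, 229 and 200 CPM in starved cells of passages 24, 26 and 27 and 70.8, 58.5 and 85.9 CPM in fed cells. Its log2 fold change was 1.66 (SE 0.17), and passage 27 had both the lowest starved and the highest fed level. The gene overlaps Ctsb, a lysosomal protease gene on the opposite strand, whose log2 fold change of -0.17 did not pass the test (edgeR adjusted p = 0.481), and the counting used strand.

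Sqle, the squalene epoxidase that ends this stretch and is itself a rate-limiting step (ENSMUSG00000022351, chr15:59315077-59331192, plus strand), had 347, 306 and 313 CPM in starved cells of passages 24, 26 and 27, against 108, 94.7 and 111 CPM in fed cells. Its starved libraries lay within 1.13-fold of each other, the least of the 9, and its fed libraries within 1.17-fold. Its log2 fold change of 1.57 had the smallest SE, 0.12. None of its 75-base windows occurs in another gene.

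Levels between genes were compared per kilobase of exon, with all bases in any annotated exon of a gene taken as its length. Where the transcripts in these cells are shorter than that, the value is too low. The order of the genes therefore also rests on this choice of length. On that scale Hmgcs1 had the highest mean in starved cells at 139 ± 19.6 CPM per kb, followed by Acat2 at 94.1 ± 30.2, Mvd at 93.3 ± 40.2 and Fdps at 83.8 ± 21.7 CPM per kb (SD, n = 3). Mvd and Acat2 lay above Hmgcs1 in passage 24, at 137, 119 and 118 CPM per kb in that order, and the spreads of all 4 genes overlap their neighbours', so their order is not resolved. The value of Acat2 also carries the shared windows given above. In fed cells Mvd had the highest mean at 32.5 ± 2.10 CPM per kb, ahead of Hmgcs1 at 27.6 ± 9.74, Acat2 at 26.2 ± 1.54 and Fdps at 26.0 ± 1.45 CPM per kb, and the spread of Hmgcs1 takes in all of these. Idi1 was last in both conditions, at 7.29 ± 1.31 CPM per kb in starved cells and 1.52 ± 0.326 CPM per kb in fed cells. The ratio of the highest to the lowest gene was 19.1 in starved cells and 21.3 in fed cells.

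**Figure D2:**
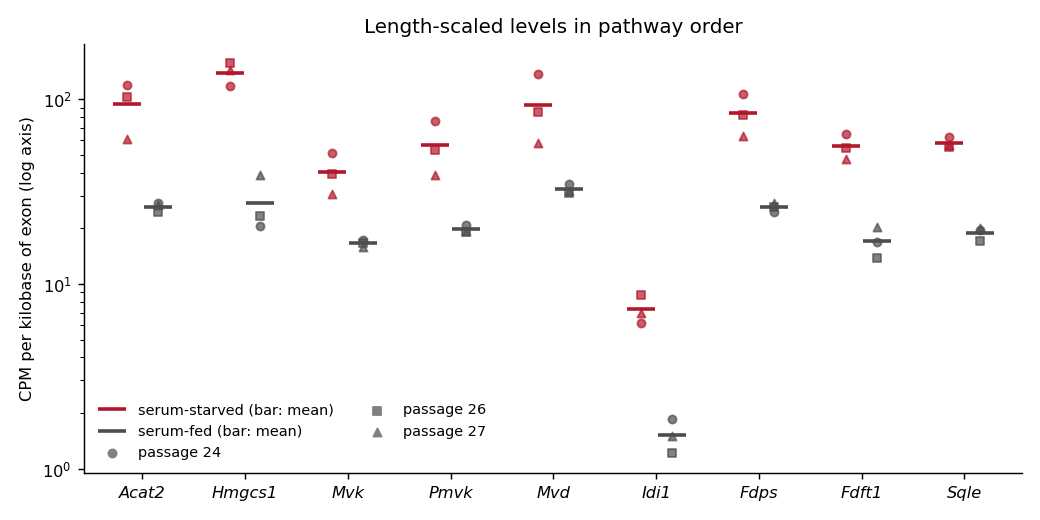
Level per kilobase of exon (y axis, CPM per kb, log axis) of the 9 genes in pathway order, with a point for each library (shape gives the passage) and a bar for the mean of serum-starved (red, left) and serum-fed (grey, right) cells. Idi1 lies far below the others in both conditions, 7.29 CPM per kb in starved cells and 1.52 CPM per kb in fed cells.

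Within the summed CPM of the 9 genes, Hmgcs1 took a larger part in starved cells, 22.0%, 32.0% and 35.2% in passages 24, 26 and 27, against 15.8%, 18.7% and 25.5% in fed cells. It was larger in starved cells within each passage, although the ranges of the conditions overlap. The part of Mvk was smaller, with 5.55%, 4.69% and 4.38% in starved cells and 7.71%, 7.80% and 6.05% in fed cells, and its groups did not overlap. The part of Acat2 had the same mean of 10.7% in both conditions.

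The size of the difference varied with passage. The median log2 ratio of starved over fed CPM over the 9 genes was 1.95 in passage 24, 1.69 in passage 26 and 1.21 in passage 27, beside 0.042, 0.053 and 0.023 over all tested genes. Passage 27 gave the smallest ratio for 8 of the 9, the exception being Idi1. The largest ratio fell in passage 24 for 5 genes and in passage 26 for 4. With 1 culture per condition in a passage, a difference between passages in this ratio could not be tested.

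The range over passages was smallest for Sqle, with ratios of 1.68, 1.69 and 1.49 in passages 24, 26 and 27. It was widest for Idi1, with 1.73, 2.85 and 2.21, and for Mvd, with 1.97, 1.45 and 0.87. As a ratio of highest to lowest library, starved cells spread more widely than fed cells in 5 genes, Acat2, Mvk, Pmvk, Mvd and Fdps. The starved level was highest in passage 24 for 7 genes and lowest in passage 27 for 6, whereas the fed level differed by 1.87-fold at most, in Hmgcs1.

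**Figure D3:**
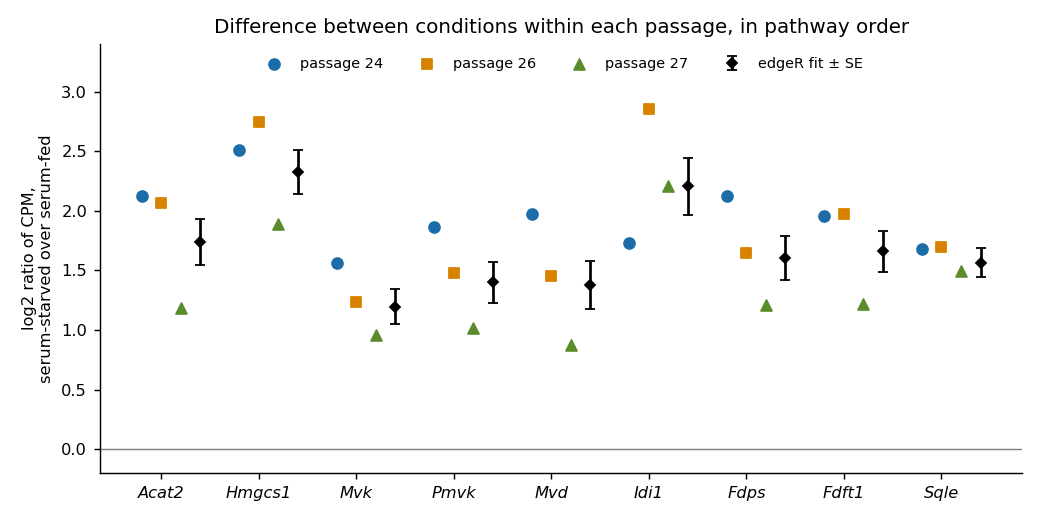
Log2 ratio of CPM, serum-starved over serum-fed (y axis), for each of the 9 genes in pathway order, with a point for each passage and a black diamond for the edgeR fit with passage as a block ± SE. All points lie above 0, and passage 27 is lowest for each gene except Idi1.

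The level of the genes across passages, with the condition held, is not the contrast that chose them and was tested. The test uses the same 6 libraries and the same residual spread as that contrast, so it is not fully independent of the choice. By edgeR's quasi-likelihood F-test of the 2 passage terms, 0 of the 9 passed an adjusted p under 0.05 (adjusted p 0.111 to 0.859), while 14.5% of all tested genes passed. At an unadjusted p under 0.05 there were 3, Mvk, Pmvk and Mvd, a share like the 34.1% of all tested genes. Passage 27 over passage 24 differed by a log2 value of -0.53 for Mvk, -0.64 for Pmvk and -0.79 for Mvd, and passage 26 over 24 by -0.31, -0.42 and -0.54 in that order of genes. Hmgcs1 leaned the other way, at 0.51 for passage 27 over 24 (edgeR adjusted p = 0.244). These values average over both conditions, whereas for Mvk, Pmvk and Mvd the fall was mainly in starved cells. Mvd went from 255 CPM in passage 24 to 108 CPM in passage 27 when starved, and from 64.9 to 59.0 CPM when fed. A passage difference that depends on condition goes into the residual of this fit. The 0 of 9 is therefore not evidence of levels that are stable across passages. DESeq2's likelihood ratio test called 1 of the 9, Mvd (adjusted p = 0.0482), among 3987 genes in all, and limma-voom called 0. Leaving out either library of passage 26 also brought Mvd past the threshold in edgeR (adjusted p = 0.0448 in both).

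As a description over 6 libraries that share 2 conditions and 3 passages, Pearson's r of log2 CPM between pairs of the 9 genes ran between 0.825 for Hmgcs1 with Mvd and 0.998 for Mvk with Pmvk, with a median of 0.961 over 36 pairs. The 4 lowest values all paired Hmgcs1 or Idi1 with Mvk, Pmvk or Mvd. Of 12558 other genes with a mean of at least 1 CPM, those whose log2 CPM followed the mean pattern of the 9 most closely included Rdh11 (r = 0.998), a retinol dehydrogenase gene, Aacs (r = 0.998), the acetoacetyl-CoA synthetase gene, the glutamate transporter gene Slc1a6 (r = 0.995) and Gm16740 (r = 0.991). Rdh11 had 101, 90.0 and 73.3 CPM in starved cells of passages 24, 26 and 27 and 43.3, 41.6 and 44.4 CPM in fed cells. Like Mvk and Pmvk it was lower in the starved cells of passage 27 than of passage 24 and nearly level in fed cells. Slc1a6 and Gm16740 were low, with at most 3.55 CPM in any library.

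Among 6 lists of related genes, 81 genes were tested on the same contrast, and 26 rose and 0 fell at an adjusted p under 0.05 in edgeR (before adjustment, 36 and 6 had p under 0.05 in those directions, shares set beside 13% and 11.3% of all tested genes). Without passage in the fit, edgeR called 2 of them higher, and leaving out 1 passage at a time gave 23 to 25. The lists were drawn up with earlier results of these data known. Over all tested genes 3.54% rose and 1.72% fell, and the median log2 fold change was -0.00051.

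The enzymes after squalene epoxide, which close and trim the sterol rings, had 10 of 11 genes higher, with a median log2 fold change of 1.66 beside 1.60 for the 9 mevalonate genes. Lss, the lanosterol synthase that takes the product of Sqle, averaged 260 ± 97.1 CPM in starved cells and 56.5 ± 6.61 CPM in fed cells (log2 fold change 2.08). Tm7sf2, a sterol reductase gene, averaged 40.1 ± 7.78 CPM and 6.60 ± 0.704 CPM in those conditions (log2 fold change 2.53). Sc4mol, the older name of Msmo1 and a sterol methyl oxidase gene, averaged 669 ± 107 CPM in starved cells and 204 ± 33.4 CPM in fed cells (log2 fold change 1.66, SD, n = 3 each). Each of these 3 had an adjusted p of 0.00309 in edgeR. The exception was Lbr, a nuclear envelope protein that is also a sterol reductase, with 158 ± 17.0 CPM in starved cells and 126 ± 27.9 CPM in fed cells (adjusted p = 0.221 in edgeR).

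The enzymes that draw on the pathway's isoprenoids for dolichol, ubiquinone and protein prenylation had 0 of 19 genes higher and 0 lower in edgeR (0 and 3 at p under 0.05 before adjustment). Their median log2 fold change was -0.14. The farnesyl pyrophosphate made by Fdps is drawn on by Ggps1, the geranylgeranyl pyrophosphate synthase, which had 24.7 ± 3.45 CPM in starved cells and 26.2 ± 4.24 CPM in fed cells, and by Fntb, a farnesyltransferase subunit, which had 26.1 ± 3.39 and 29.4 ± 1.52 CPM in those conditions. Neither passed the test (edgeR adjusted p = 0.596 and 0.376). DESeq2 called 3 of the 19 lower, Pdss1 (log2 fold change -0.74), Coq2 (-0.62) and Pdss2 (-0.61), among 898 genes it called lower in all, and edgeR without passage 24 called Coq2 lower. Ggps1, Fntb and these 3 were named after their values were seen.

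In the list of SREBP control and sterol handling 5 of 15 genes rose, with a median of 0.32. Insig1, which holds SREBP in the endoplasmic reticulum, had 339 ± 53.7 CPM in starved cells and 70.04 ± 10.7 CPM in fed cells (log2 fold change 2.22, edgeR adjusted p = 0.00309). Stard4, a sterol carrier gene, had 244 ± 42.5 CPM in starved cells and 102 ± 25.7 CPM in fed cells (log2 fold change 1.22, edgeR adjusted p = 0.00763). Srebf2, the gene of SREBP-2 itself, had 425 ± 37.1 CPM in starved cells and 223 ± 62.3 CPM in fed cells (log2 fold change 0.91, edgeR adjusted p = 0.0169). Its escort gene Scap, named after its values were seen, had 119 ± 3.82 CPM in starved cells and 121 ± 4.65 CPM in fed cells. Srebf1, the gene of SREBP-1, was also named after its values were seen. It had 190 ± 23.1 CPM in starved cells and 119 ± 28.9 CPM in fed cells, and did not pass (log2 fold change 0.65, edgeR adjusted p = 0.0633).

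Fatty acid synthesis, which SREBP-1 is known to drive, had 9 of 15 genes higher and a median of 0.95. Elovl6, a fatty acid elongase gene, rose by a log2 fold change of 1.58 (edgeR adjusted p = 0.00309). Fasn, the fatty acid synthase gene, rose by 1.23 (adjusted p = 0.00918), and Acss2, which makes acetyl-CoA from acetate, rose by 1.96 (adjusted p = 0.0211) in the same edgeR fit.

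In the list of LXR, the sterol-sensing nuclear receptor, with its targets and genes of sterol export, 1 of 11 rose. It was the apolipoprotein gene Apoe (log2 fold change 1.09, edgeR adjusted p = 0.0308), and Apoe no longer passed without passage 27 (edgeR adjusted p = 0.0831). This count varied with the fit, from 0 in edgeR with no passage to 3 in DESeq2 and 4 in edgeR with no filter. The mitochondrial and ketone-body relatives of the first enzymes had 1 of 10 tested genes higher, the cytosolic Aacs (log2 fold change 1.22, edgeR adjusted p = 0.00585). Acat1, the mitochondrial thiolase that shares its reaction with Acat2, had 162 ± 29.6 CPM in starved cells and 136 ± 13.4 CPM in fed cells.

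**Figure D4:**
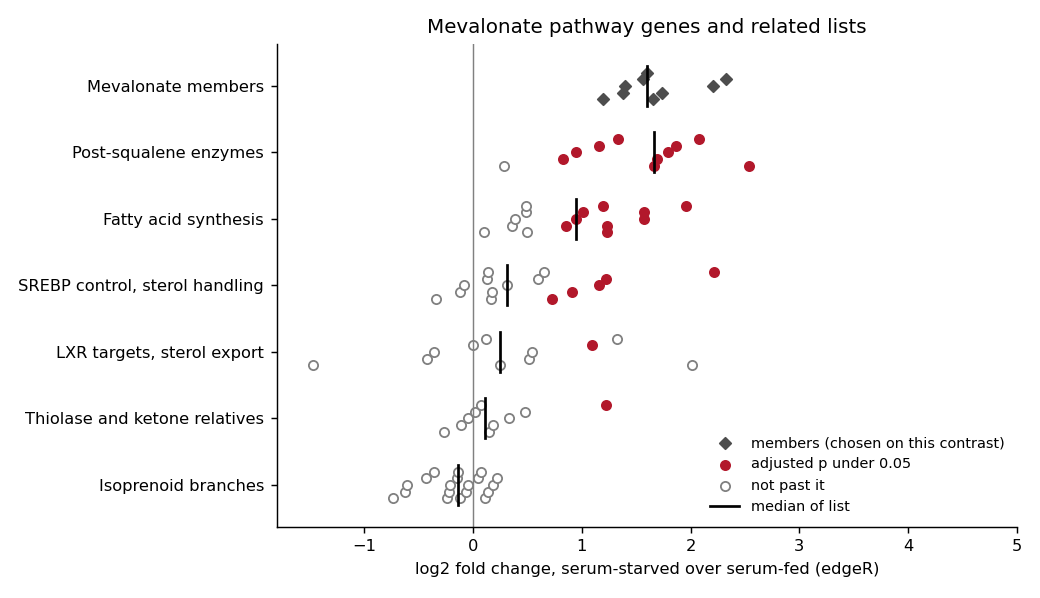
Log2 fold change of serum-starved over serum-fed cells (x axis, edgeR) for the 9 mevalonate genes (grey diamonds, chosen on this contrast) and 6 related lists, with red points for an adjusted p under 0.05 and a black line at each list's median. Post-squalene enzymes have a median of 1.66 beside 1.60 for the 9, with Lbr alone among them not past the threshold, while the isoprenoid branches lie around 0 with no red point.

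Some markers of other cell types also differed between the conditions. The 9 fibroblast markers summed to 2378 to 7782 CPM in starved cells and 933 to 2846 CPM in fed cells, 6 of 8 tested passed as higher and 0 as lower, and none was at 0. Of 15 skeletal muscle markers 14 were in the table, 13 of them had a count and Myf5 was at 0. They summed to 64.6 to 889 CPM in starved cells and 88.4 to 230.2 CPM in fed cells, and 7 of 11 tested passed as higher and 0 as lower. The 8 Müller glia markers summed to 1820 to 3109 CPM in starved cells and 1977 to 4280 CPM in fed cells, with Aqp4 at 0, and 2 of 7 tested passed as higher and 1 as lower. The 10 ganglion cell markers had 33.2 to 60.2 CPM in starved cells and 33.2 to 37.0 CPM in fed cells, with Pou4f2 at 0, and 0 of 7 tested passed as higher and 1 as lower. The lists share genes with others. Apoe, called higher in the LXR list above, is also a Müller glia marker here, and Thy1 is in both the fibroblast and the ganglion cell lists. The 7 markers of retinal pigment epithelium had 5.36 to 12.9 CPM in starved cells and 4.52 to 7.20 CPM in fed cells, with Ttr at 0, and 0 of 2 tested passed. Of the 14 cone markers 5 were tested, and 1 passed as higher and 0 as lower. Their part in the difference of the mevalonate genes was not tested.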

How the data were processed

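RNA was polyA-selected, made into stranded libraries and sequenced by the authors as single-end reads of 75 bases on 4 lanes. The authors aligned reads with STAR to GRCm38 (mm10) and deposited raw read counts per gene, from HTSeq's union mode with reads taken as reverse-stranded. The versions of STAR, HTSeq and the authors' DESeq2 were not given in the sources used. A second deposited table holds the authors' own DESeq2 comparison (base means, log2 fold changes, standard errors, test statistics and p-values) and was not used.

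Of 38803 rows, 27 whose names had turned into dates were left out (0.223% to 0.301% of a library's counts). CPM is counts divided by the library total of the other rows, times 1e6. Exon lengths (all bases in any annotated exon of a gene) and coordinates are from GENCODE M21 and promoters from RefSeq (GRCm38.p6). Log2 fold changes are starved over fed. The SE given with a fitted value is its absolute size divided by the square root of edgeR's quasi-likelihood F statistic. Ratios within a passage use CPM by library totals, whereas the fitted values also use TMM factors. Counts were tested with edgeR 4.0.16 (quasi-likelihood F-test, TMM, filterByExpr by condition, 15660 genes, Benjamini-Hochberg) in R 4.3.3 with passage as a block, at an adjusted p under 0.05 and under 0.01, and the fit was tested on simulated counts. The labels give each passage 1 culture of each condition. Deviations of log2 CPM from the condition means correlated between the cultures of passages 24, 26 and 27 at 0.69, 0.29 and 0.69. The highest correlation of each starved culture with a fed culture of another passage was -0.099, 0.27 and -0.12 in that order. For passage 26 the pairing is thus hardly seen in the data. TMM factors were 0.939 to 1.04 and the biological coefficient of variation 0.197. Alternatives were a fit with no passage, DESeq2 1.42.0 with and without the passage (the second added after seeing the data), limma-voom 3.58.1, RLE factors, library totals, no filter, 10 counts in every library, and leaving out replicates. Nothing in the labels says more of how separate the cultures were, so p-values measure the spread between these cultures.

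The members and the lists were chosen with earlier results of these data known. Named are the 9 members, up to 3 genes per list and direction that passed with the smallest p, and the 5 genes most like the members (Pearson's r to the mean of the members' standardised log2 values, with 0.5 CPM added). Some genes that this rule or the lists held are not reported here and were left out of the lists' counts. Python 3.11.15, pandas 2.3.3, numpy 2.4.6 and matplotlib 3.10.9 were used.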

Additional observations from a re-analysis of the deposited data

How the results depend on the processing

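The 9 mevalonate genes were chosen on the difference of starved from fed cells, and the alternatives refit the same 6 libraries or part of them. No count of their calls or signs is therefore used as support here. All 99 recomputed log2 fold changes of the 9 mevalonate genes (11 alternatives each) were above 0, and 90 passed an adjusted p under 0.05. The 9 that did not were all from edgeR with no replicate block, that is without the pairing by passage (adjusted p 0.0588 to 0.297), where 0 of the 9 passed. That fit called 4 genes higher and 0 lower in all, and 2 of the related genes higher, against 555, 269 and 26 with the block. DESeq2 with no replicate block called 9 of the 9, 277 genes higher and 48 lower. DESeq2 with the block called 1116 higher, 898 lower and 3 related genes lower, and edgeR with no filter 1106 higher and 705 lower. Leaving out 1 passage (replicate) gave 271 genes higher without passage 27 to 863 without passage 24, 63 to 493 lower between the same fits, and 0 to 1 related genes lower, while the members' median log2 fold change was 1.55 to 1.83.

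Between passages, DESeq2 called 3987 genes and 1 member, and the fit with the condition left out called 0 genes. Leaving out 1 library gave 401 genes (without the fed library of passage 27) to 3408 (without the fed library of passage 26) and 0 to 1 members. Direction was followed only for the members and for the named genes of the related lists that were called higher, not for every gene called. For these genes, no starved over fed value reversed its direction under any alternative run. The members' passage values were not called by edgeR with all libraries. Some of them, as for Fdft1 and Idi1, changed sign when 1 library was left out. Each member had 316 counts or more in each library, and the precision of each value rests on 3 cultures per condition. The cause of the differences between fits was not tested.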
